A study of Mus musculus with 10 samples.

Results

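The genes described here are the transactivators of the major histocompatibility complex (MHC) and the factor they bind: Nlrc5, Ciita, Rfx5, Rfxap and Rfxank. They were chosen by symbol, as the class I transactivator, the class II transactivator and the 3 subunits of regulatory factor X (RFX), and make up 5 of the 77175 entries of the deposited count table. All 5 passed the filter on low counts, which left 15526 genes to be tested. Expression was measured by poly-A RNA sequencing in mouse melanoma cells, in 10 libraries of 4 groups. B16-F10-OVA cells (OVA) are B16-F10 cells with a lentiviral vector in which the EF1A promoter drives ovalbumin, a model antigen, beside a Neo cassette. They were sampled in 3 libraries after 24 h with 50 ng/ml interferon gamma (IFN-γ) and in 2 untreated libraries. The line they derive from, B16-F10 (WT), was sampled the same way, with 3 treated and 2 untreated libraries. The labels do not say whether OVA cells are 1 clone or a pool, and they do not say that the replicates are separate cultures, so p-values measure only the spread between these libraries, which may be technical.

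RFX is a complex of Rfx5, Rfxap and Rfxank that binds the X box of MHC promoters and is made in most cells. It binds there together with CREB or ATF1 and with NF-Y, and this assembly by itself gives little transcription. Ciita, which does not bind DNA by itself, docks on the assembly and recruits coactivators to class II genes, while Nlrc5, a related protein of the NOD-like receptor (NLR) family, does so at class I genes. Ciita is known to be made by few cell types, and in other cells IFN-γ switches it on through factors that include Irf1 and Usf1. B16 melanoma cells are known for low surface MHC class I that IFN-γ raises.

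Promoters of 4 target genes are printed to show the kind of sequence this assembly is known to bind, together with those of Rfx5 and Rfxank, for which a RefSeq promoter (GRCm38.p6) could be matched. Each window holds 250 bases before and 50 bases after the start of the gene, on its own strand, 5′ to 3′. Capitals mark matches, on either strand, to an RFX core site (GTTGC or GCAAC), a CRE core site bound by the CREB and ATF1 family (TGACG or CGTCA), the CCAAT box of NF-Y (CCAAT or ATTGG), an interferon regulatory factor element (GAAANNGAAA or TTTCNNTTTC) or a gamma-activated site (TTCNNNGAA). The RFX and CRE core sites are short parts of their binding sites, and TGACG and CGTCA overlap where they form a full CRE.
H2-Aa, chr17:34287774-34288073, minus strand: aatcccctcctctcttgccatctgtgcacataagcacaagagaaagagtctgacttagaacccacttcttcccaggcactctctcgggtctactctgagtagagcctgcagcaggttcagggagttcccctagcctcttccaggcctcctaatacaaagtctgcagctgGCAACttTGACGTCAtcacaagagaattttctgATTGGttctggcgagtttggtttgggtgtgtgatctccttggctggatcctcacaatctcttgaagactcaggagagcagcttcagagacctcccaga
H2-Eb1, chr17:34305617-34305916, plus strand: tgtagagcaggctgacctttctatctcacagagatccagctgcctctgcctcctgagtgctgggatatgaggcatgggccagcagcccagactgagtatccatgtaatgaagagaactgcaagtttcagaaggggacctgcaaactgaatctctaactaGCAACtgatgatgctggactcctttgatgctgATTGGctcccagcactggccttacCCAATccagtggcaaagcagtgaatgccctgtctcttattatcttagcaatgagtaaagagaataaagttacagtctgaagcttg
H2-D1, chr17:35262844-35263143, plus strand: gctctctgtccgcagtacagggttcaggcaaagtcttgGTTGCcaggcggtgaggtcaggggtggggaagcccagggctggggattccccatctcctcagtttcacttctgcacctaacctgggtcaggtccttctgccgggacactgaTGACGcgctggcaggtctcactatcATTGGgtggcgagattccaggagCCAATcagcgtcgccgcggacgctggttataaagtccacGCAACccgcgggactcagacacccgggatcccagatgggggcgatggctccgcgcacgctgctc
B2m, chr2:122147437-122147736, plus strand: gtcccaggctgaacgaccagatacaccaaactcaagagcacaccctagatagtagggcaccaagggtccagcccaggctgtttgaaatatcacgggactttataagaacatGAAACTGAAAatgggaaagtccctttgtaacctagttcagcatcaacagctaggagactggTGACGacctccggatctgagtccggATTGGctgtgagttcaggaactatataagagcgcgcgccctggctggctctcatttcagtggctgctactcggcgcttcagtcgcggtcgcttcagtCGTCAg
Rfx5, chr3:94953858-94954157, plus strand: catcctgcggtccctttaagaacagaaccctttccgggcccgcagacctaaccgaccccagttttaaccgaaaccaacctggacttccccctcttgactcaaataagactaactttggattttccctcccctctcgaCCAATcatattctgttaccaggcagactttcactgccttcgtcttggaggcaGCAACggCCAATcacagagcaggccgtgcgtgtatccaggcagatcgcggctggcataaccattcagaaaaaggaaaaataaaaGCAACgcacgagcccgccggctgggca
Rfxank, chr8:70139148-70139447, minus strand: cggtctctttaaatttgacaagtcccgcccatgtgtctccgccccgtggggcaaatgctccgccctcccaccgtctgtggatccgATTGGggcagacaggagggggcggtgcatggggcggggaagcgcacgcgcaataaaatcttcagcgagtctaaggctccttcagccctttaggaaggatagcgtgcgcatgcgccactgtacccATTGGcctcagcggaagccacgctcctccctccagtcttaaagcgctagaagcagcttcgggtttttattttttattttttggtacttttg
Of 32851 promoters of the same length, 35.2% held the RFX core site, 20.8% the CRE core site, 37.4% the CCAAT box and 2.92% all 3. H2-Aa, which encodes a class II chain, held all 3 between positions -81 and -48 from the start of the gene. H2-D1, a class I heavy chain gene, also held all 3, with the CRE core site at -101, CCAAT box matches at -76 and -53, and RFX core matches farther off, at -212 and -14. H2-Eb1, another class II gene, held the RFX core site at -91 and CCAAT box matches at -59 and -35, and no match to the CRE core site letters. B2m, the class I light chain gene, held a CRE core site at -78, a CCAAT box at -53 and an interferon regulatory factor element at -139, and no match to the RFX core site letters. Rfx5 held the RFX core site at -61 and 24 and CCAAT at -113 and -54. Rfxank held ATTGG at -165 and -41 and none of the other motifs. The interferon regulatory factor element was in 3.44% of all promoters and the gamma-activated site in 8.30%, and neither was in the windows of Rfx5 and Rfxank. These matches describe letters in a window, and counts per gene do not tell which promoter of a gene was used.

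With IFN-γ, both transactivator genes were high in both lines, Rfx5 was about doubled, and the other RFX subunits were not called. Of the 5 genes, 3 were called higher in OVA cells and the same 3 in WT cells at an adjusted p under 0.05 (edgeR's quasi-likelihood test with Benjamini-Hochberg adjustment over all genes tested). Among all genes, 25.9% were called higher in OVA cells and 24.5% in WT cells. At least a doubling was called for 5.29% in OVA cells and 4.93% in WT cells. DESeq2 and limma-voom also called 3 of the 5 in each line. Nlrc5 and Ciita passed the filter on low counts through their treated libraries, so that a difference between treated and untreated cells was built into their being tested. Levels are counts scaled to library size (CPM) with TMM factors, as mean ± SD over n = 3 treated or n = 2 untreated libraries.

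**Figure D1:**
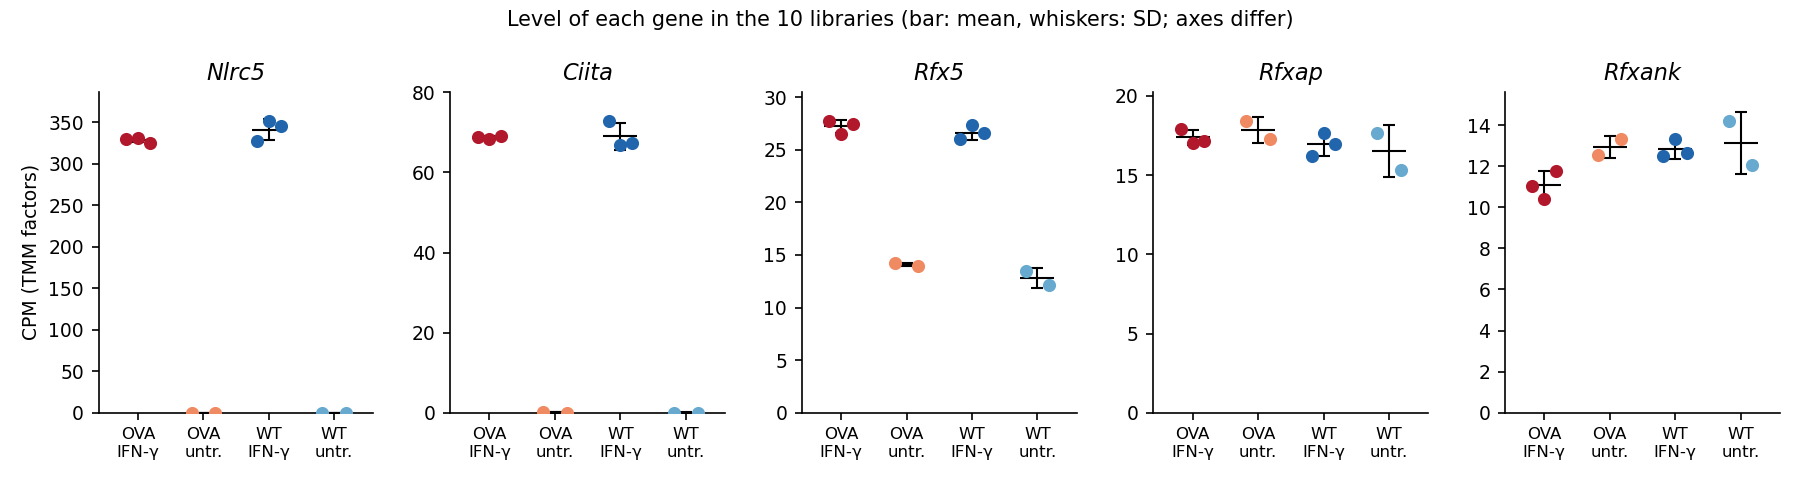
Level of each gene in CPM (vertical axes, from 0, differing between panels) in the 10 libraries. Points are libraries, the bar is the group mean and whiskers are the SD, with n = 3 for IFN-γ and n = 2 for untreated groups. Nlrc5 and Ciita lie near 0 in untreated cells, Rfx5 is higher in all 6 treated libraries, and Rfxap libraries of treated and untreated cells overlap in both lines.

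Nlrc5 (ENSMUSG00000074151), the class I transactivator, had 5887, 5882 and 5835 counts in OVA cells with IFN-γ, against 5 and 4 counts in untreated OVA cells. In WT cells it had 6037, 6823 and 6596 counts with IFN-γ, against 1 count in each untreated library. Treated and untreated libraries did not overlap in either line, which was also so for 65.6% of all genes in OVA cells and 62% in WT cells. Its level averaged 329 ± 2.83 CPM in treated and 0.245 ± 0.0407 CPM in untreated OVA cells. In WT cells it averaged 341 ± 12.7 CPM with IFN-γ and 0.0556 ± 0.000569 CPM without. With 1 count in each untreated WT library, the last SD reflects only library size and not how well the level is known. The fitted log2 change was 10.35 (SE 0.39, 95% interval 9.53 to 11.17, edgeR adjusted p = 8.35e-22) in OVA cells. In WT cells the untreated libraries summed to 2 counts, and the ratio was 6138-fold with a 95% counting interval of 1699 to 50686 (edgeR adjusted p = 8.01e-22). Intervals and floors of this kind cover counting error only, and in bulk libraries more cells with a transcript and more of it per cell cannot be told apart.

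Ciita (ENSMUSG00000022504), the class II transactivator, had 1229, 1215 and 1238 counts in OVA cells with IFN-γ, against 2 and 1 in untreated OVA cells. WT cells had 1345, 1300 and 1286 counts with IFN-γ, against 1 and 0 counts without, and a count of 0 allows up to 3. No treated library overlapped an untreated one, which was also so for 65.6% of all genes in OVA cells and 62% in WT cells. The level was 68.7 ± 0.360 CPM in treated OVA cells and 69.0 ± 3.29 CPM in treated WT cells. The ratio of treated to untreated was 842-fold from 3 counts (counting interval 288 to 4083) in OVA cells and 2480.3-fold from 1 count (445 to 97990.5) in WT cells. The edgeR adjusted p was 3.66e-18 in OVA cells and 3.80e-18 in WT cells. The size in WT cells rests on single untreated counts: the fitted log2 change was 10.96, 10.12 without WT untreated replicate 2, and 13.31 without WT untreated replicate 1, where the untreated count is 0 and the value depends on the prior count. With each library left out it ran from 9.21 to 10.13 in OVA cells.

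Rfx5 (ENSMUSG00000005774), the RFX subunit that carries the DNA-binding domain, had 27.7, 26.5 and 27.4 CPM in OVA cells with IFN-γ, against 14.2 and 14.0 CPM without. In WT cells it had 26.0, 27.3 and 26.5 CPM with IFN-γ, against 13.5 and 12.1 CPM without. All treated libraries lay above the untreated ones in each line. A lack of overlap, in either direction, was found for 65.6% of all genes in OVA cells and 62% in WT cells. Rfx5 rose 1.93-fold in OVA cells (95% interval 1.75 to 2.14, log2 change 0.95, SE 0.068, edgeR adjusted p = 3.28e-09). It rose 2.08-fold in WT cells (1.88 to 2.31, log2 change 1.06, SE 0.070, edgeR adjusted p = 1.12e-09). Unlike the transactivators it was well measured without IFN-γ, with 216 to 259 counts in an untreated library.

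Rfxap (ENSMUSG00000036615), the RFX-associated protein of the complex, had 17.9, 17.0 and 17.2 CPM in treated OVA cells, against 18.4 and 17.3 CPM in untreated ones. WT cells had 16.2, 17.7 and 17.0 CPM with IFN-γ, against 17.7 and 15.3 CPM without. The libraries overlapped in both lines. The log2 change was -0.04 in OVA cells (95% interval -0.20 to 0.13, edgeR adjusted p = 0.723) and 0.04 in WT cells (-0.13 to 0.20, edgeR adjusted p = 0.732). These intervals leave out a doubling in either direction.

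Rfxank (ENSMUSG00000036120), the ankyrin repeat subunit, had 11.0, 10.4 and 11.8 CPM in treated OVA cells, against 12.5 and 13.3 CPM in untreated ones. WT cells had 12.5, 13.3 and 12.6 CPM with IFN-γ, against 14.2 and 12.04 CPM without. The treated OVA libraries lay below the other 7, and the WT groups overlapped. Treated and untreated OVA libraries did not overlap for 65.6% of all genes. The share of genes split from the other 7 was not computed. The log2 change in OVA cells was -0.22 (SE 0.094, 95% interval -0.42 to -0.026, edgeR adjusted p = 0.0579), short of the threshold. In WT cells it was -0.03 (-0.23 to 0.16, edgeR adjusted p = 0.795). The OVA value lay on the threshold: without OVA IFN-γ replicate 3 the edgeR adjusted p was 0.0393, without WT untreated replicate 1 it was 0.0479 and without WT untreated replicate 2 it was 0.0484. Over all alternatives the adjusted p ran from 0.0393 to 0.271. By the GENCODE M21 annotation, Rfxank shares 1341 exonic bases, 33.8% of its exons, with Nr2c2ap on the opposite strand. Nr2c2ap had 545 to 592 counts in treated and 453 to 490 in untreated OVA libraries, and 500 to 552 counts in treated and 421 to 440 in untreated WT libraries. The labels do not say that counting used strand, so reads of this pair cannot be told apart and the Rfxank values are uncertain.

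**Figure D2:**
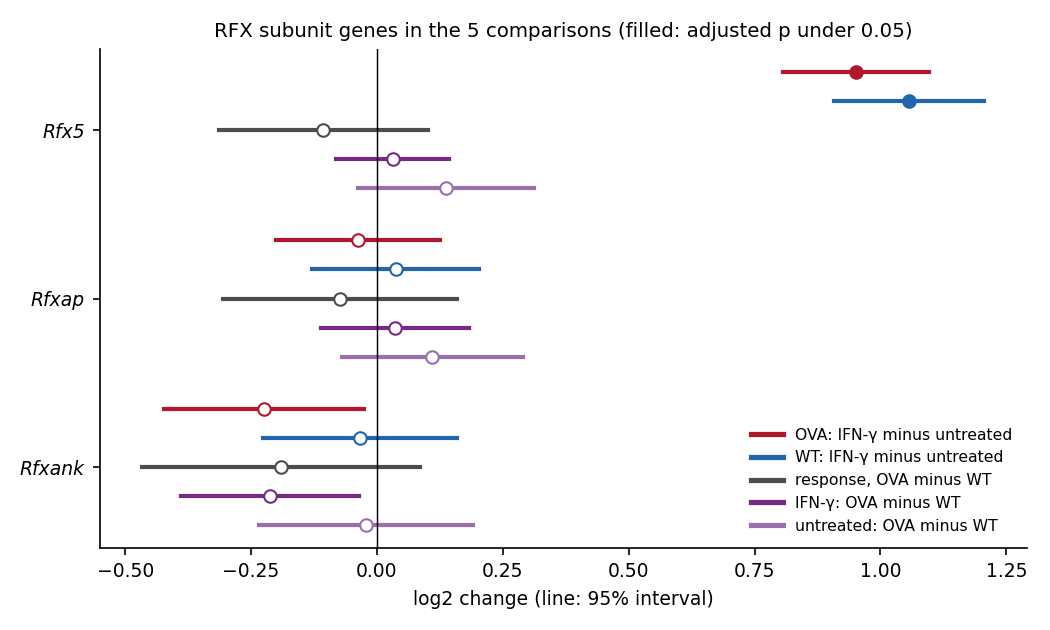
Log2 change (horizontal axis) of the 3 RFX subunit genes in the 5 comparisons, with 95% intervals as lines, and filled points where the edgeR adjusted p was under 0.05. Only the responses of Rfx5, 0.95 in OVA and 1.06 in WT cells, are filled.

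Other members also overlap opposite-strand genes. Rfx5 shares 1471 exonic bases, more than Rfxank but a lower share of its exons (26.8%), with B230398E01Rik, which had at most 17 counts in a library. Ciita shares 329 bases (3.45%) with Dexi, which had 185 to 208 counts in treated and 117 to 128 in untreated OVA libraries, and 194 to 231 counts in treated and 93 to 115 in untreated WT libraries. Nlrc5 shares 78 bases (0.918%) with 9330175E14Rik. That gene had 420 to 448 counts in treated and 0 to 1 in untreated OVA libraries, and 396 to 455 counts in treated and 0 in untreated WT libraries, so its counts were high in the same libraries as Nlrc5. How many reads of one gene were counted in the other was not tested.

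The series set the response of the OVA line against that of the WT line. No member was called in this difference by edgeR, where 1 member (Nlrc5) had an unadjusted p under 0.05 and 0.341% of all genes were called. DESeq2 gave an adjusted p for 1 member and called 0, and limma-voom called 0. For Rfx5 the difference of responses, OVA minus WT, was -0.11 on the log2 scale (95% interval -0.31 to 0.10, edgeR adjusted p = 0.786). For Rfxap it was -0.07 (-0.31 to 0.16, edgeR adjusted p = 0.884) and for Rfxank -0.19 (-0.47 to 0.086, edgeR adjusted p = 0.663). For Nlrc5 the edgeR unadjusted p was 0.0263 and the adjusted p 0.401, with an unadjusted 95% interval of -3.99 to -0.14. This interval rests on 9 counts in untreated OVA cells and 2 in untreated WT cells. The Ciita difference, with 3 and 1 such counts, had a 95% interval of -4.45 to 1.73 and an edgeR adjusted p of 0.785.

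With IFN-γ, no member was called between OVA and WT cells (edgeR, 1 member with an unadjusted p under 0.05, against 14.4% of all genes called). DESeq2 and limma-voom also called 0. Nlrc5 differed by -0.05 log2 units (SE 0.029, 95% interval -0.12 to 0.0065, edgeR adjusted p = 0.230) and Ciita by -0.01 (-0.097 to 0.085, edgeR adjusted p = 0.950). Both intervals are narrow, since these genes had at least 1215 counts in each treated library. Rfx5 differed by 0.03 (-0.081 to 0.14, edgeR adjusted p = 0.752) and Rfxap by 0.04 (-0.11 to 0.18, edgeR adjusted p = 0.782). The gene with the low unadjusted p was Rfxank, at 11.1 ± 0.682 CPM in treated OVA cells and 12.8 ± 0.449 CPM in treated WT cells. Its libraries did not overlap, as for 31.1% of all genes, and it differed by -0.21 (SE 0.084, -0.39 to -0.035, edgeR adjusted p = 0.103).

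Without IFN-γ, edgeR again called 0 of the 5 members between the lines (1 with an unadjusted p under 0.05, against 5.53% of all genes called), and DESeq2 and limma-voom called 0. Nlrc5 had 9 counts over the untreated OVA libraries and 2 over the untreated WT libraries, a ratio of 4.40 with a counting interval of 0.912 to 41.9 (edgeR adjusted p = 0.208). For Ciita, with 3 and 1 counts, no fold can be given. Rfx5 averaged 14.1 ± 0.164 CPM in OVA cells and 12.8 ± 0.970 CPM in WT cells (log2 difference 0.14, 95% interval -0.037 to 0.31, edgeR adjusted p = 0.439). Its libraries did not overlap, as for 49.7% of all genes. Rfxap differed by 0.11 (-0.070 to 0.29, edgeR adjusted p = 0.542) and Rfxank by -0.02 (-0.23 to 0.19, edgeR adjusted p = 0.949).

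To set levels of the 5 genes beside each other, CPM were divided by the exonic length in kilobases. In OVA cells with IFN-γ, Nlrc5 was at 38.7 ± 0.334, Rfxap at 7.75 ± 0.210, Ciita at 7.21 ± 0.0377, Rfx5 at 4.95 ± 0.117 and Rfxank at 2.79 ± 0.172 CPM per kb. Treated WT cells gave the same order, with Nlrc5 at 40.2 ± 1.4999, Rfxap at 7.55 ± 0.328, Ciita at 7.24 ± 0.345, Rfx5 at 4.84 ± 0.123 and Rfxank at 3.23 ± 0.113 CPM per kb. The order of Rfxap and Ciita depends on the length used: with the longest transcript, a choice made after seeing the data, Ciita was at 11.4 and Rfxap at 8.04 CPM per kb in treated OVA cells, and at 11.5 and 7.83 in treated WT cells. In untreated OVA cells the order was Rfxap (7.95 ± 0.363 CPM per kb), Rfxank (3.26 ± 0.136) and Rfx5 (2.56 ± 0.0299), with both transactivators near 0. Untreated WT cells had Rfxap at 7.36 ± 0.732, Rfxank at 3.31 ± 0.383 and Rfx5 at 2.33 ± 0.177 CPM per kb. The transactivator transcripts thus stood at Nlrc5 over Ciita ratios of 5.37 ± 0.0723 in treated OVA cells and 5.56 ± 0.459 in treated WT cells. The size of this ratio also depends on the length used: with the longest transcript it was 3.79 in treated OVA cells and 3.93 in treated WT cells.

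Within RFX, the share of Rfx5 transcript was higher with IFN-γ. The Rfx5 to Rfxap ratio per kilobase was 0.631, 0.634 and 0.652 in OVA libraries with IFN-γ, against 0.314 and 0.330 without. In WT libraries it was 0.655, 0.631 and 0.638 with IFN-γ, against 0.311 and 0.322 without. Treated and untreated libraries did not overlap, while the treated libraries of both lines overlapped each other. The Rfx5 to Rfxank ratio was 1.78 ± 0.0832 in treated and 0.787 ± 0.0420 in untreated OVA cells, and 1.499 ± 0.0193 in treated and 0.705 ± 0.0282 in untreated WT cells. Rfxank was thus the lowest of the 3 subunit transcripts in treated cells and Rfx5 the lowest in untreated cells, an order that was the same with the longest transcript as length (1.68 in treated and 0.792 in untreated WT cells). The Rfxank to Rfxap ratio was 0.360 ± 0.0235 in treated and 0.411 ± 0.0358 in untreated OVA cells, and 0.428 ± 0.00819 in treated and 0.449 ± 0.00737 in untreated WT cells. No test was made on these ratios, and those with Rfxank share its overlap with Nr2c2ap.

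**Figure D3:**
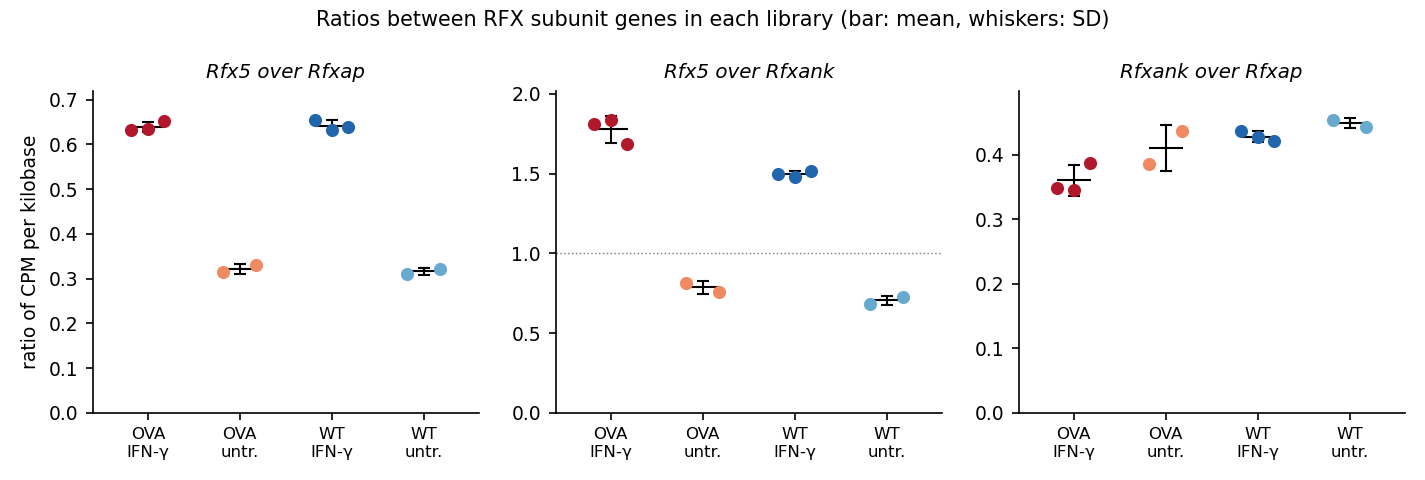
Ratios of CPM per kilobase between RFX subunit genes (vertical axes, from 0) in each library, with the group mean as a bar and the SD as whiskers (n = 3 with IFN-γ, n = 2 untreated). The dotted line marks equal levels. Treated group means of Rfx5 over Rfxank are 1.499 or more, above the line, and untreated ones are 0.787 or less, below it.

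The 10 libraries held 17728722 to 19642533 counts each. Melanocyte genes were abundant in all of them, with a summed level of 7 such genes of 23884 to 24467 CPM in treated and 24070 to 24092 in untreated OVA libraries, and of 23836 to 24108 in treated and 23256 to 23492 in untreated WT libraries. Ciita and class II genes are also made by immune cells, so their markers were counted. Ptprc, Itgax, Flt3 and Cd3e were at 0 counts in all 10 libraries. The 10 macrophage and dendritic cell markers summed to 52 to 59 counts in treated and 33 to 43 in untreated OVA libraries, and to 61 to 84 counts in treated and 30 to 46 in untreated WT libraries. Of these 10 only Cd68, a lysosomal protein gene, was tested. It was called higher with IFN-γ, with a log2 change of 0.70 in OVA cells and 0.81 in WT cells. Without Cd68 the sums were 1 to 3 in treated and 5 in untreated OVA libraries, and 4 to 7 in treated and 3 to 4 in untreated WT libraries. The 5 B cell markers summed to 5 to 17 counts and the 5 T cell markers to 0 to 6 over all libraries. The 5 fibroblast markers summed to 75 to 103 counts in treated and 118 to 124 in untreated OVA libraries, and to 87 to 100 counts in treated and 113 to 138 in untreated WT libraries, without overlap. Among single genes, 65.6% did not overlap in OVA cells and 62% in WT cells. Of the 3 fibroblast markers tested, 1 was called lower with IFN-γ in each line, Col1a1 in OVA cells and Pdgfra in WT cells. Of all genes tested, 22.9% were called lower in OVA cells and 19.7% in WT cells. With 3 genes, this is not read as a trait of the markers. The part of the marker counts in the members' results was not tested.

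Most genes of a list of signalling genes and regulators upstream of the transactivators were higher with IFN-γ. The list held 15 genes of IFN-γ signalling and of the control of Ciita: receptor, JAK-STAT, interferon regulatory factor and feedback genes, and the transcription factor genes Usf1, Mitf and Prdm1. Of these, 13 were called higher and 2 lower in OVA cells, and 12 higher and 2 lower in WT cells. Of all genes tested, 25.9% were called higher and 22.9% lower in OVA cells, and 24.5% and 19.7% in WT cells. The median log2 change of the list was 1.47 in OVA cells and 1.598 in WT cells, beside 0.0018 and 0.011 over all genes tested. Irf1, which acts on the IFN-γ responsive promoter of Ciita, rose by 5.99 in OVA cells (660.4 ± 20.96 CPM with IFN-γ and 10.4 ± 0.0999 CPM without, edgeR adjusted p = 8.35e-22). It rose by 6.04 in WT cells (701 ± 22.6 and 10.7 ± 0.520 CPM, edgeR adjusted p = 8.01e-22). Irf8 rose at least 1283-fold in OVA cells against a floor of 3 counts over the group, and 2044-fold from 2 counts in WT cells (counting interval 566 to 16879). Prdm1, a repressor of Ciita in plasma cells, rose at least 16.9-fold in OVA and 13.9-fold in WT cells, and reached 1.38 ± 0.526 and 1.16 ± 0.316 CPM. The feedback inhibitor Socs1 rose by 5.04 log2 units in OVA cells and 5.70 in WT cells. Both receptor genes fell, Ifngr1 by 0.30 in OVA and 0.26 in WT cells and Ifngr2 by 0.53 and 0.46, and Irf4 was not called in WT cells (log2 change 1.598, edgeR adjusted p = 0.136). Usf1, named after its values were seen, rose by 1.27 in OVA cells and by 1.23 in WT cells. Irf8, Prdm1 and Irf4 had at most 3 counts in an untreated library and passed the filter on low counts through their treated libraries, so their being higher was built into their being tested. Without WT untreated replicate 1, only 1 gene of this list was called lower in WT cells.

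Most of the genes that Nlrc5 is known to act on rose. Of 12 class I genes 11 were tested, with a median log2 change of 4.65 in OVA and 4.75 in WT cells. Over all genes tested the medians were 0.0018 and 0.011, and 25.9% were called higher in OVA and 24.5% in WT cells. Of the 11 class I genes, 10 were called higher and none lower in each line. The exception was H2-Q7, at 0.953 ± 0.300 CPM with IFN-γ and 1.14 ± 0.0102 CPM without in OVA cells, and at 1.40 ± 0.237 and 0.945 ± 0.0690 CPM in WT cells. H2-Q6 stayed too low to be tested. H2-T10, H2-M3 and Psmb9 had at most 3 counts in an untreated library and passed the filter through their treated libraries, so a difference was built into their being tested. Psmb9, an immunoproteasome subunit gene, rose 1733-fold from 3 counts in OVA cells (counting interval 593 to 8406). In WT cells its fitted log2 change was 10.23, which rests on 4 untreated counts in all. H2-T23, a non-classical class I gene, rose by 8.26 in OVA and 7.83 in WT cells, and the peptide transporter gene Tap1 by 7.24 and 8.36. B2m rose by 3.86 in OVA and 3.82 in WT cells, the smallest of the called changes in each line. Class I genes are near-identical in part, and no label or note says how reads matching several of them were counted, so the value of any single H2 gene is uncertain.

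Genes that Ciita is known to act on also rose, from almost no counts. Of 10 class II genes 6 were tested, and all 6 were called higher in each line. Among all genes tested, 25.9% were called higher in OVA and 24.5% in WT cells. The median log2 change of the 6 was 8.50 in OVA and 8.44 in WT cells. For this, genes at 3 or fewer untreated counts stand at their bound or ratio. As with Ciita, those genes were tested because of their treated libraries. H2-Eb1 rose at least 424-fold in OVA and 383-fold in WT cells, and H2-Ab1 at least 357-fold and 314-fold. H2-Aa, whose promoter is printed above, rose at least 369-fold in OVA cells and 1092-fold from 1 count in WT cells (counting interval 196 to 43139). Cd74, the invariant chain gene, rose 3822-fold from 1 count in OVA cells (686 to 150984) and 1053-fold from 3 counts in WT cells (360 to 5107). The peptide-loading genes H2-DMa and H2-DMb1 were detected without IFN-γ. They rose by 6.06 and 4.76 log2 units in OVA cells and by 5.94 and 4.63 in WT cells. H2-DMa had only 7 to 8 counts in an untreated OVA library and 5 to 12 in an untreated WT library. It too passed the filter through its treated libraries, so a difference was built into its being tested. H2-Oa, H2-Ob, H2-DMb2 and H2-Eb2 stayed too low to be tested. Between the treated lines Ciita was at 68.7 ± 0.360 CPM in OVA and 69.0 ± 3.29 CPM in WT cells. Of the 6 tested class II genes 1 was called between them, beside 14.4% of all genes tested. It was Cd74, at 104 ± 3.47 CPM in OVA and 87.8 ± 3.12 CPM in WT cells (log2 difference 0.24, edgeR adjusted p = 0.0006). With 6 genes, this count is not read as a trait of class II genes.

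**Figure D4:**
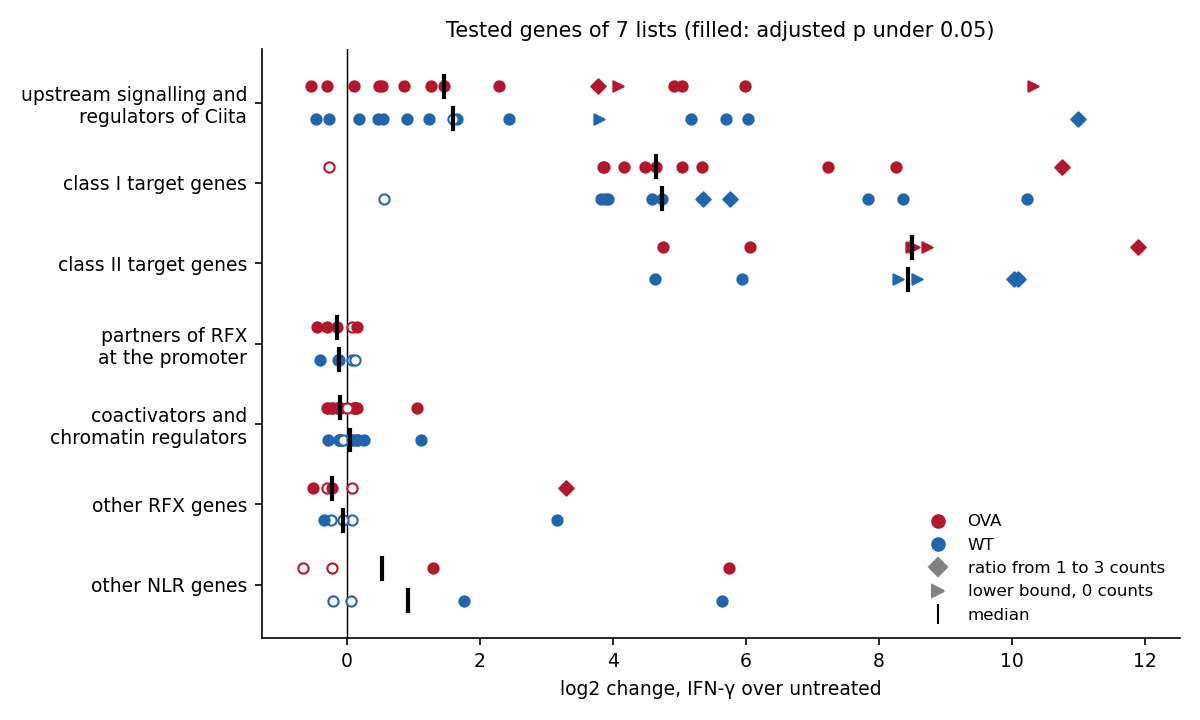
Log2 change of IFN-γ over untreated (horizontal axis) for the tested genes of 7 lists, OVA above WT, filled where the edgeR adjusted p was under 0.05. Diamonds are ratios from 1 to 3 untreated counts, triangles are lower bounds for genes at 0 untreated counts, and bars are list medians. Class I genes centre near 4.65 in OVA and 4.75 in WT cells, while the partners of RFX lie between -0.45 and 0.16.

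Transcripts of the proteins that bind beside RFX had log2 changes between -0.45 and 0.16 with IFN-γ. Of the 5 partner genes, 1 was called higher and 3 lower in OVA cells and none higher and 3 lower in WT cells, with medians of -0.14 and -0.12. Among all genes tested, 25.9% were called higher and 22.9% lower in OVA cells, and 24.5% and 19.7% in WT cells. With 5 genes, the counts are not read as a trait of the partners. Nfya, the sequence-reading subunit of NF-Y, fell by 0.45 in OVA cells (63.2 ± 1.54 CPM with IFN-γ and 86.4 ± 3.12 CPM without, edgeR adjusted p = 6.10e-08) and by 0.40 in WT cells (68.8 ± 0.495 and 90.6 ± 0.764 CPM, edgeR adjusted p = 2.87e-07). Creb1 fell by 0.30 in OVA and 0.12 in WT cells, and Atf1 by 0.14 and 0.13. Nfyc rose by 0.16 in OVA cells, and was not called in WT cells (0.13, edgeR adjusted p = 0.0503). Nfyb was not called in either line (0.08 in OVA and 0.09 in WT cells). Several of these calls lie near the threshold: 1 of the 3 WT decreases was called without WT untreated replicate 2 or WT IFN-γ replicate 2, by DESeq2 and with no filter, and the Nfyc call was absent without OVA untreated replicate 2 or OVA IFN-γ replicate 1 and by DESeq2.

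Of 14 coactivator and chromatin genes, 3 were called higher and 7 lower in OVA cells and 6 higher and 3 lower in WT cells, with medians of -0.10 and 0.05. Among all genes tested, 25.9% were called higher and 22.9% lower in OVA cells, and 24.5% and 19.7% in WT cells. Kat2b, an acetyltransferase known to bind Ciita, rose by 1.05 in OVA cells (179 ± 3.29 CPM with IFN-γ and 86.5 ± 0.156 CPM without, edgeR adjusted p = 3.95e-14) and by 1.12 in WT cells (176 ± 0.868 and 81.0 ± 0.824 CPM, edgeR adjusted p = 1.80e-14). Ezh2, the Polycomb methyltransferase, fell by 0.28 in each line. Carm1, an arginine methyltransferase, fell by 0.30 in OVA cells and was not called in WT cells (-0.09). No gene of the list was called in the difference of responses by edgeR. The counts depend on single libraries: 4 were called lower in OVA cells without OVA untreated replicate 2. In WT cells 3 were called higher without either untreated library and by DESeq2, and 2 without WT IFN-γ replicate 3. Those called lower in WT cells numbered 1 without WT untreated replicate 1 and 6 without WT IFN-γ replicate 1.

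Relatives of the members were counted in the same way. Of the 7 other Rfx genes 5 were tested, with 1 called higher and 2 lower in OVA cells and 1 higher and 1 lower in WT cells. Over all genes tested the shares called were 25.9% higher and 22.9% lower in OVA cells, and 24.5% and 19.7% in WT cells. Rfx4 rose 9.83-fold from 3 counts in OVA cells (counting interval 3.15 to 49.5), to 0.802 ± 0.287 CPM. In WT cells it reached 1.06 ± 0.251 CPM, with a fitted log2 change of 3.17 that rests on 4 untreated counts in all. It too was tested because of its treated libraries. Rfx3 fell by 0.51 in OVA and 0.35 in WT cells, and Rfx7 by 0.22 in OVA cells. Rfx7 in WT cells (-0.05), Rfx1 (0.08 in each line) and Rfx2 (-0.29 in OVA and -0.23 in WT cells) were not called. Of 13 other NLR genes 4 were tested, and 2 were called higher in each line. Nod1, a sensor of bacterial peptidoglycan, rose by 5.75 in OVA cells (63.2 ± 1.99 CPM with IFN-γ and 1.17 ± 0.0280 CPM without) and by 5.64 in WT cells (81.0 ± 1.21 and 1.61 ± 0.0622 CPM). Naip2 rose by 1.29 in OVA and 1.77 in WT cells, and Nlrx1 and Nlrc3 were not called (-0.22 and -0.65 in OVA, -0.21 and 0.07 in WT cells). Between the treated lines Nod1 was lower in OVA than in WT cells (log2 difference -0.36, edgeR adjusted p = 5.57e-06), while Nlrc5 was not called.

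As a description, the genes whose log2 CPM were most like each member over the 10 libraries, among 12545 genes, were ranked by Pearson r. These libraries share the contrast of treated and untreated cells, so r is close to 1 for many induced genes. Nlrc5 was most like Erap1, which encodes a peptide-trimming enzyme of class I presentation, then Slfn8 and Oasl2, all with r over 0.999. Ciita was most like Apol9b, Phf11d and Gbp2, also with r over 0.999. Rfx5 was most like Pgs1 (0.999), Cgas (0.998), the DNA sensor gene, and Tor1aip1 (0.998). Nlrc5 and Ciita had an r of 0.999 with each other and of 0.996 with Rfx5. Rfxap had its highest values with Tprn (0.870), Trim27 (0.841) and Cep120 (0.834), and Rfxank with 1700123M08Rik (0.907), Syk (0.903) and Pias2 (0.893). Rfxap and Rfxank had an r of 0.135 with each other.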

How the data were processed

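The deposited table held raw read counts per Ensembl gene for 10 libraries, made with HISAT2 2.0.5 and featureCounts 1.6.0 on GRCm39, per the submitters' processing notes. Which annotation and strand setting were used, and how multi-mapping reads were treated, is not given in the sources used here. One protocol mentions tissue, but all group labels name cell lines. Of the 77175 entries, 39963 had no counts in any library and 21805 had no symbol.

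The quasi-likelihood test of edgeR 4.0.16 (R 4.3.3) was run two-sided on genes kept by filterByExpr, with TMM factors, Benjamini-Hochberg adjustment over the 15526 genes tested and a threshold of 0.05. All 10 libraries were fitted together with 4 group means, since groups of 2 give little estimate of the spread by themselves. The 5 comparisons were IFN-γ over untreated in each line, the difference of these responses, and OVA over WT with and without IFN-γ. The steps were run on simulated data with changes far smaller than those of Nlrc5 and Ciita, and the outcome is not given here. Standard errors and 95% intervals come from the fit. Groups of 1 to 3 counts are given as a ratio with an exact counting interval, and groups at 0 as a bound against a floor of 3 counts per group. Lengths and overlaps were taken by gene ID from GENCODE M21, and promoters and motifs from RefSeq for GRCm38.p6, another build than that of the counts.

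The 5 members and the 7 gene lists were chosen with earlier results of these data known. Genes named were the members, all tested genes of lists of 7 or fewer, up to 4 called genes with the largest and up to 2 with the smallest change of longer lists, exceptions to small counts, and the 3 genes most like each member (mean of at least 1 CPM, log2 CPM with a prior count of 2). Alternatives were DESeq2 1.42.0, limma-voom (limma 3.58.1), RLE factors, a replicate block, fits of only the groups compared, no filter, a stricter filter (at least 1 CPM in 5 libraries), and each library left out once. Some listed genes are counted in their lists but not reported here by name.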

Additional observations from a re-analysis of the deposited data

Results flagged for a closer look

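By the interaction term of the edgeR fit, no member was called in the difference of responses between the lines, with intervals that are wide for Nlrc5 and Ciita, while 2 of the 11 tested class I genes were called. H2-K1 differed by 0.60 log2 units (edgeR adjusted p = 0.00105), with 616 ± 7.38 CPM in treated and 15.1 ± 0.327 CPM in untreated OVA cells, and 718 ± 24.9 CPM in treated and 26.7 ± 1.61 CPM in untreated WT cells. Tap1 differed by -1.12 (edgeR adjusted p = 0.0156), with 500.5 ± 10.2 CPM in treated and 3.30 ± 0.761 CPM in untreated OVA cells, and 496 ± 3.97 CPM in treated and 1.502 ± 0.173 CPM in untreated WT cells. For H2-K1 both OVA groups were below the WT groups, and for Tap1 the untreated OVA libraries were above the untreated WT ones. The Tap1 difference was not called by limma-voom or without WT untreated replicate 1, WT untreated replicate 2 or OVA untreated replicate 1. Groups of 2 and 3 libraries were too small to look for single outlying libraries.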

How the results depend on the processing

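The calls of Nlrc5, Ciita and Rfx5 with IFN-γ were made in both lines under all alternatives run, with log2 changes of 0.93 to 0.96 for Rfx5 in OVA cells and 0.98 to 1.14 in WT cells. Nlrc5 and Ciita passed every filter through their treated libraries, so a difference was built into their being tested. Only the fit with no filter did not depend on this. The members' other values were not called under any alternative, except Rfxank in OVA cells: -0.23 with RLE factors (edgeR adjusted p = 0.0499), -0.24 with the stricter filter (0.0420) and -0.23 with only the groups compared (0.0461), and -0.28 to -0.18 with each library left out in turn (0.0393 to 0.271). Values near 0 changed sign with 1 library left out, and ran from -0.0282 to 0.0356 for Ciita between treated lines (above 0 without WT IFN-γ replicate 1 and OVA IFN-γ replicate 2), from -0.0587 to 0.146 for the WT response of Rfxap and from -0.180 to 0.0248 for its difference of responses (both turned without WT untreated replicate 2), from -0.144 to 0.0938 for the WT response of Rfxank (without WT untreated replicate 1) and from -0.134 to 0.104 for Rfxank between untreated lines (without WT or OVA untreated replicate 1). The cause was not tested.

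Over all genes, 12 were called higher and 41 lower in the difference of responses, against 22 and 81 with DESeq2, 79 and 205 with no filter, and 7 to 25 and 14 to 82 with each library left out. Between untreated lines 463 were higher and 396 lower, against 272 higher with DESeq2, 614 lower with only the groups compared, and 187 to 543 higher and 160 to 469 lower with each library left out. Between treated lines 988 were higher and 1241 lower, against 558 higher with DESeq2, and 586 to 1124 higher and 795 to 1284 lower with each library left out. Same-numbered libraries of different groups correlated at -0.072 to 0.035 in their deviations. These values cannot tell whether a shared number marks a shared culture or batch, since deviations within each untreated group mirror each other. A replicate block gave 26 higher and 139 lower in the difference of responses. The block changed no call of a member (Rfxank in OVA cells, edgeR adjusted p = 0.0678).

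DESeq2 gave no adjusted p for 4 members in the difference of responses, and Nlrc5 and Ciita could not be fitted in untreated libraries by themselves. Rfxank had 185 to 246 counts in an OVA library, and its change in OVA cells lay near the threshold. The part of depth and of groups of 2 in this was not tested. Smaller changes were called for genes with more counts, such as Atf1. With 0 to 5 untreated counts per library the sizes of the Nlrc5 and Ciita responses are known only within the intervals given.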
